A study of Homo sapiens with 12 samples.

Results

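The BCL2 family of apoptosis regulators was followed through 10 member genes, chosen by name for their roles in cell survival and death, out of 59251 genes in the deposited count table. They comprised 4 pro-survival genes (BCL2, BCL2L1, MCL1 and BCL2A1) and 6 pro-death genes, of which 2 encode pore-forming effectors (BAX and BAK1) and 4 encode BH3-only proteins (BCL2L11, BBC3, PMAIP1 and BID). All 10 members had counts and were among the 13318 genes that passed the expression filter of edgeR.

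HL-60, a human myeloid leukemia cell line described as acute promyelocytic in the deposited design text and as lacking the PML-RARA fusion in the paper, was grown in RPMI1640 with FBS and profiled by RNA-Seq in 12 libraries. Cells were left non-treated, or were exposed for 48 h to 1 µM ATRA (all-trans retinoic acid), to 1 µM palbociclib, an inhibitor of the kinases CDK4 and CDK6 (CDK4/6i), or to both drugs together (CDK4/6i+ATRA). Each of these 4 groups had 3 libraries, named as biological replicates; the paper describes an enrichment analysis of non-treated, CDK4/6i and combined treatment as resting on independent experiments, and the labels do not say how cultures were divided. The p-values measure the spread between these libraries. Total counts ran from 12230923 to 18679544 per library, and the CDK4/6i+ATRA libraries held the fewest (12230923, 13103560 and 14415276).

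Proteins of this family decide whether the outer mitochondrial membrane is opened during apoptosis. BAX and BAK1 form the pores, the pro-survival proteins hold them and the BH3-only proteins in check, and the BH3-only proteins either neutralize the pro-survival proteins or activate the effectors directly. Myeloid cells often rely on MCL1, and BCL2A1 is known as a hematopoietic member that is regulated strongly at the level of transcription.

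Marker genes were used to check the line. MPO, the myeloperoxidase of promyelocyte granules, had a mean of 6517 CPM in non-treated cells, 293 under ATRA, 3469 under CDK4/6i and 28.0 under CDK4/6i+ATRA (CPM, counts per 1000000 counts of a library normalized by the TMM method). CD33, a myeloid surface receptor, was present in every group, with means of 77.9 to 118 CPM, and CTSG (cathepsin G) had 14.0 CPM in non-treated cells and 0.638 CPM under CDK4/6i+ATRA. ELANE, AZU1 and PRTN3, neighbouring granule protease genes, had no count in any of the 12 libraries; the table lists these 3 genes on alternate contigs as well as on the primary chromosome. Of the markers of other cells, CD3D, MS4A1, HBB, EPCAM, CDH1, COL1A1 and COL1A2 had at most 4 counts in any library, and CD3E had 6 to 59 counts.

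Known responses to the drugs were present. TGM2, transglutaminase 2, had 1 count in total in the non-treated libraries and at least 33339 counts in each ATRA library, and CD38 had 0 to 8 counts without ATRA and at least 4435 with it. ITGAM, the integrin chain CD11b, rose from a mean of 9.25 CPM in non-treated cells to 274 under ATRA and 589.5 under CDK4/6i+ATRA, whereas CYP26A1, a retinoid-degrading enzyme, had at most 2 counts in any library. All 5 cell cycle genes examined (MKI67, CCNB1, CDK1, TOP2A and CCNE2) were lower under CDK4/6i and under CDK4/6i+ATRA and higher under ATRA than in non-treated cells. In bulk RNA, fewer cells in a given state and less RNA per cell cannot be told apart.

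**Figure D1:**
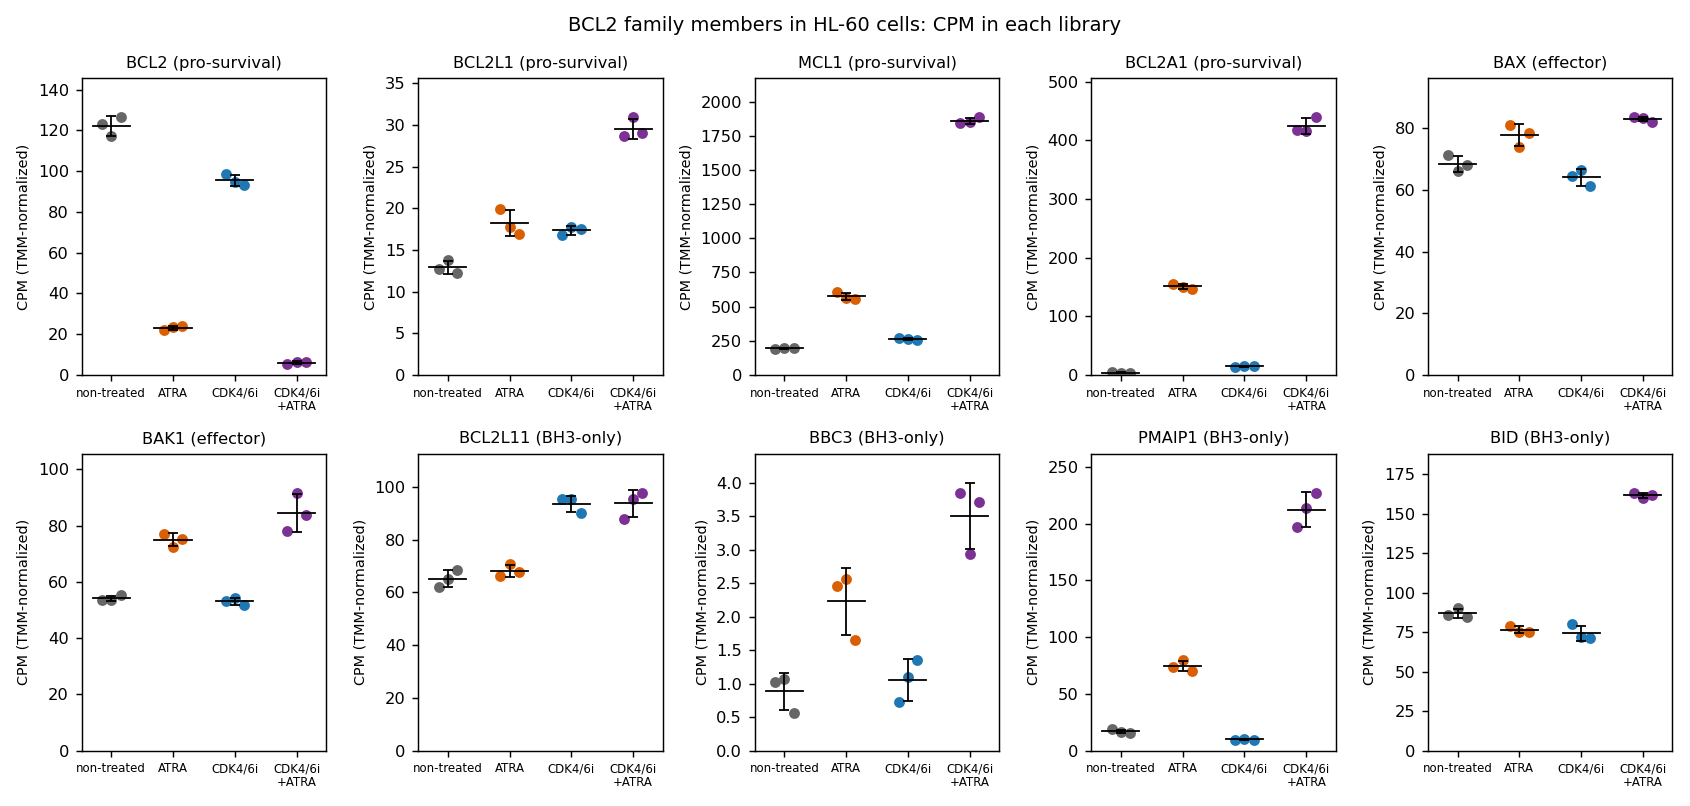
CPM of the 10 members in each of the 12 libraries (vertical axes, linear and starting at 0), by group (horizontal axes); points are libraries, horizontal lines are group means and bars are SDs over 3 libraries. BCL2 fell from 117 to 127 CPM in non-treated cells to 5.32 to 6.42 CPM under CDK4/6i+ATRA, while MCL1, BCL2A1 and PMAIP1 were highest under CDK4/6i+ATRA.

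BCL2, the founding pro-survival gene (chr18:63123346-63320090, minus strand, hg38), had 123, 117 and 127 CPM in the 3 non-treated libraries. It had 21.8, 23.6 and 23.8 CPM under ATRA, 98.5, 94.5 and 93.3 CPM under CDK4/6i, and 5.32, 6.42 and 6.36 CPM under CDK4/6i+ATRA. The groups did not overlap, and their order from high to low was non-treated, CDK4/6i, ATRA and CDK4/6i+ATRA. ATRA lowered BCL2 by a log2 fold change of -2.41 (SE 0.0550, adjusted p = 1.3e-37, edgeR's quasi-likelihood F test, Benjamini-Hochberg adjusted over the 13318 genes). Every SE and 95% interval of a log2 value given here was derived from the F statistic, and can be too narrow where a change is large. CDK4/6i lowered BCL2 by -0.36 (SE 0.0457, adjusted p = 2.83e-09 in the same edgeR test), and both drugs by -4.34 (SE 0.0771, adjusted p = 5.47e-43, edgeR). Even so, each CDK4/6i+ATRA library still held 58 to 77 BCL2 counts, above the floor of 3 counts (0.156 to 0.275 CPM) taken as the limit of detection, a limit that covers counting error only.

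MCL1, whose protein is short-lived and restrains BAK1 and BH3-only proteins (chr1:150574558-150579610, minus strand, hg38), rose with each drug. Its 3 libraries had 193, 197 and 194 CPM in non-treated cells, 603, 566 and 553 CPM under ATRA, 268, 263 and 258 CPM under CDK4/6i, and 1839.7, 1847 and 1886 CPM under CDK4/6i+ATRA. All 12 values fell into 4 separate groups, lowest in non-treated cells and highest with both drugs. The log2 fold change against non-treated cells was 1.56 under ATRA (SE 0.0413), 0.44 under CDK4/6i (SE 0.0416) and 3.26 under CDK4/6i+ATRA (SE 0.0428), the last with an adjusted p of 1.44e-48 in edgeR's quasi-likelihood F test, Benjamini-Hochberg adjusted. Isoforms of MCL1, BCL2L1 and BCL2L11 with opposite or differing activity are known, and gene counts do not separate them.

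BCL2A1, a pro-survival gene of hematopoietic cells (chr15:79960892-79971196, minus strand, hg38), was low without drugs. It had 4.15, 3.70 and 3.83 CPM in non-treated cells, from 59 to 69 counts a library, and 14.2, 15.95 and 15.2 CPM under CDK4/6i. Under ATRA it had 155, 149.8 and 147 CPM, and under CDK4/6i+ATRA 417, 415 and 439 CPM. No group overlapped another, and every library under ATRA exceeded every library without it. The rise against non-treated cells was 38.6-fold under ATRA (log2 5.27, SE 0.0694, adjusted p = 5.05e-48), 3.86-fold under CDK4/6i (log2 1.95, SE 0.102, adjusted p = 3.21e-22) and 109-fold under CDK4/6i+ATRA (log2 6.76, SE 0.0640, adjusted p = 1.67e-54), each by edgeR's quasi-likelihood F test, Benjamini-Hochberg adjusted.

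The promoters of BCL2A1 and PMAIP1, the pro-survival and the pro-death member with the largest change under CDK4/6i+ATRA, are shown because both genes rose under ATRA and most under CDK4/6i+ATRA; under CDK4/6i alone BCL2A1 rose and PMAIP1 fell. RefSeq promoters (GRCh38.p14) were matched for 9 of the 10 members, in 14 windows of 300 bases, each from 250 bases before to 50 bases after a start of transcription; MCL1 was not matched. The windows below are chr15:79971147-79971446 (minus strand) and chr18:59899746-59900045 (plus strand), printed 5′ to 3′ along the gene, with capitals marking the letters TGATGCAA.

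BCL2A1: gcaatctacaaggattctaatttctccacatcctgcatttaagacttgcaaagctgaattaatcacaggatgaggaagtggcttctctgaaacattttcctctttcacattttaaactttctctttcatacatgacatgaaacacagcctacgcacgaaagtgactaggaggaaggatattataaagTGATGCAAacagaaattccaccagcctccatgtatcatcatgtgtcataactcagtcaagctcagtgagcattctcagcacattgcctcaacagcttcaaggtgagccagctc
PMAIP1: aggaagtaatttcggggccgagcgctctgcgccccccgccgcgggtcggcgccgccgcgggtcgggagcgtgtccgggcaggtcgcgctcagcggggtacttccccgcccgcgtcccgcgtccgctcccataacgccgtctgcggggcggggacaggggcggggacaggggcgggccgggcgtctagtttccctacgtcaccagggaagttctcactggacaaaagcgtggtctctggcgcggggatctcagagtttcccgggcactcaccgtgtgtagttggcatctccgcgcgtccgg

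The 8 motifs searched on both strands were the E2F letters TTTCGCGC, TTTGGCGC and TTTCCCGC, the C/EBP letters TTGCNNAA, the retinoic acid receptor letters AGGTCA, the NF-kB consensus, the cAMP response element TGACGTCA and the C/EBP-ATF element TGATGCAA. Among all 35116 RefSeq windows, these were present in 0.515%, 0.652%, 1.63%, 10.5%, 13.8%, 11.3%, 1.85% and 0.866% in that order. The C/EBP-ATF letters of BCL2A1, beginning at -63 with the start of transcription as 0, were the only match in the 14 member windows, and no other searched motif overlapped them. G and C made up 41.0% of the BCL2A1 window, 71.3% of that of PMAIP1, and 58.7% in the median of all windows. A match is a description of letters, and its absence says only that those letters are not in the window.

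BCL2L1, which encodes BCL-XL and a shorter pro-death isoform (chr20:31664452-31723963, minus strand, hg38), varied less. It had 12.7, 13.7 and 12.3 CPM in non-treated cells, 19.9, 17.7 and 17.0 CPM under ATRA, 16.8, 17.8 and 17.6 CPM under CDK4/6i, and 28.7, 30.9 and 29.0 CPM under CDK4/6i+ATRA. The ATRA and CDK4/6i libraries overlapped each other, at a difference of 0.07 on the log2 scale (95% interval -0.10 to 0.24), while those with both drugs lay above all others. Both drugs raised it by 1.20 on the log2 scale (SE 0.0886, adjusted p = 2.82e-17 by edgeR's quasi-likelihood F test, Benjamini-Hochberg adjusted), against 0.50 under ATRA and 0.43 under CDK4/6i. Its exons share 1029 bases with ABALON on the opposite strand, which had 237 counts in all; as strand-specific counting is not stated, reads of this overlap cannot be assigned to a strand.

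The effectors BAX (chr19:48954875-48961798, plus strand, hg38) and BAK1 (chr6:33572552-33580276, minus strand, hg38) encode the proteins that permeabilize the outer membrane. BAX had means of 68.4 CPM in non-treated cells, 77.8 under ATRA, 64.0 under CDK4/6i and 83.0 under CDK4/6i+ATRA, from 912 to 1421 counts a library. BAK1 had means of 54.1, 74.9, 53.1 and 84.5 CPM in the same order, from 851 to 1361 counts a library. Every library under ATRA exceeded every library without it for both genes. Against non-treated cells, the log2 fold change of BAX was 0.18 under ATRA and 0.28 under CDK4/6i+ATRA (adjusted p = 0.000832 and 2.79e-06 by edgeR's quasi-likelihood F test, Benjamini-Hochberg adjusted), and that of BAK1 was 0.47 and 0.64 (adjusted p = 3.31e-11 and 2.29e-15, edgeR). CDK4/6i alone gave -0.10 for BAX (95% interval -0.20 to 0.0024) and -0.03 for BAK1 (-0.14 to 0.081), neither past the threshold. With library size alone as the scaling, the BAX value under CDK4/6i+ATRA was 0.01 and no longer passed the threshold (adjusted p = 0.84, edgeR), nor did that against CDK4/6i, which went from 0.37 to 0.10. That scaling moved the median of all genes for CDK4/6i+ATRA from 0.02 to -0.25 against non-treated cells, from 0.00 to -0.28 against CDK4/6i, from 0.04 to -0.26 against ATRA, and from -0.02 to -0.34 for the interaction. The TMM factors of the CDK4/6i+ATRA libraries were 0.840 to 0.893, against 1.025 to 1.07 in the others, and the part of these factors and of the smaller library totals in the results was not tested.

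PMAIP1, which encodes the BH3-only protein NOXA, a partner of MCL1 (chr18:59899996-59904305, plus strand, hg38), moved in opposite directions with the single drugs. It had 18.7, 16.1 and 15.8 CPM in non-treated cells, 74.0, 79.6 and 70.2 CPM under ATRA, 9.65, 10.4 and 9.77 CPM under CDK4/6i, and 197, 213 and 227 CPM under CDK4/6i+ATRA. CDK4/6i gave the lowest libraries and both drugs the highest, without overlap between groups. The log2 fold change against non-treated cells was 2.15 under ATRA (SE 0.0670), -0.76 under CDK4/6i (SE 0.0931, adjusted p = 8.67e-10 by edgeR's quasi-likelihood F test, Benjamini-Hochberg adjusted) and 3.66 under CDK4/6i+ATRA (SE 0.0627, adjusted p = 1.09e-43, edgeR).

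BID, which links caspase-8 to mitochondria (chr22:17734138-17774665, minus strand, hg38), was lower with each single drug and higher with both. It had 85.6, 90.3 and 84.9 CPM in non-treated cells, 78.9, 75.2 and 75.2 CPM under ATRA, 79.9, 71.8 and 71.0 CPM under CDK4/6i, and 163, 160.0 and 162 CPM under CDK4/6i+ATRA. The single-drug libraries overlapped each other below all non-treated libraries, and the libraries with both drugs lay far above. The log2 fold change was -0.19 under ATRA and -0.22 under CDK4/6i (adjusted p = 0.000496 and 5.15e-05 by edgeR's quasi-likelihood F test, Benjamini-Hochberg adjusted), and 0.90 with both (SE 0.0452, adjusted p = 1.03e-23, edgeR).

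BCL2L11, which encodes BIM, a BH3-only protein that binds all pro-survival members (chr2:111120914-111168445, plus strand, hg38), was higher in both groups that received CDK4/6i. It had 61.9, 65.1 and 68.4 CPM in non-treated cells, 66.4, 70.8 and 67.6 CPM under ATRA, 95.3, 95.5 and 90.0 CPM under CDK4/6i, and 88.0, 95.6 and 97.8 CPM under CDK4/6i+ATRA. The libraries under CDK4/6i overlapped each other with and without ATRA, and all lay above those without CDK4/6i. It rose by 0.52 on the log2 scale under CDK4/6i and by 0.53 under CDK4/6i+ATRA (adjusted p = 3.09e-13 and 2.85e-13 by edgeR's quasi-likelihood F test, Benjamini-Hochberg adjusted). ATRA alone gave 0.07 (95% interval -0.03 to 0.17), which was not called, but was 0.12 and passed with only the groups compared (adjusted p = 0.0351, edgeR). CDK4/6i+ATRA differed from CDK4/6i by 0.0036 (95% interval -0.095 to 0.10), a difference that turned to -0.28 and passed the threshold with library size alone as the scaling (adjusted p = 4.71e-06, edgeR).

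BBC3, which encodes PUMA, a BH3-only protein that binds the pro-survival members (chr19:47220824-47232860, minus strand, hg38), had the fewest counts of the members in every library, 10 to 45. Its means were 0.884 CPM in non-treated cells, 2.23 under ATRA, 1.06 under CDK4/6i and 3.50 under CDK4/6i+ATRA (SDs 0.278, 0.498, 0.312 and 0.491, n = 3). The libraries without ATRA overlapped each other and lay below every library under ATRA. The rise of 1.99 on the log2 scale with both drugs had an interval of 1.37 to 2.61 (adjusted p = 9.59e-08 by edgeR's quasi-likelihood F test, Benjamini-Hochberg adjusted), the widest among the members.

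Under CDK4/6i+ATRA against non-treated cells, 9 members rose and 1 fell, where 81.7% of all tested genes were called, 41% higher and 40.7% lower. ATRA gave 7 higher and 2 lower of 10 (background 67.6%, of which 32.1% higher and 35.5% lower), and CDK4/6i gave 4 higher and 3 lower (background 56.2%, 28.3% higher and 27.9% lower). Here a gene was called at an adjusted p under 0.05. The members' share called in either direction was not far above the background. These counts are descriptions, not tests of the family. The comparisons share the non-treated libraries. The median log2 fold change of the members was 0.48 under ATRA, 0.11 under CDK4/6i and 1.05 under CDK4/6i+ATRA, against -0.03, 0.02 and 0.02 over all tested genes. Among the 4 pro-survival members the median was 1.03 under ATRA, 0.43 under CDK4/6i and 2.23 under CDK4/6i+ATRA, BCL2 lying below each, and among the 6 pro-death members it was 0.33, -0.06 and 0.77. For the interaction of the drugs, the order of the medians was the other way, with -0.09 for the pro-survival and 0.30 for the pro-death members. The pro-survival values were scattered, from -1.57 for BCL2 to 1.26 for MCL1, so their median stands for no single member. Among the pro-death values, BAX and BAK1 (0.19 and 0.20) turned to -0.13 and -0.12 with library size alone as the scaling.

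**Figure D2:**
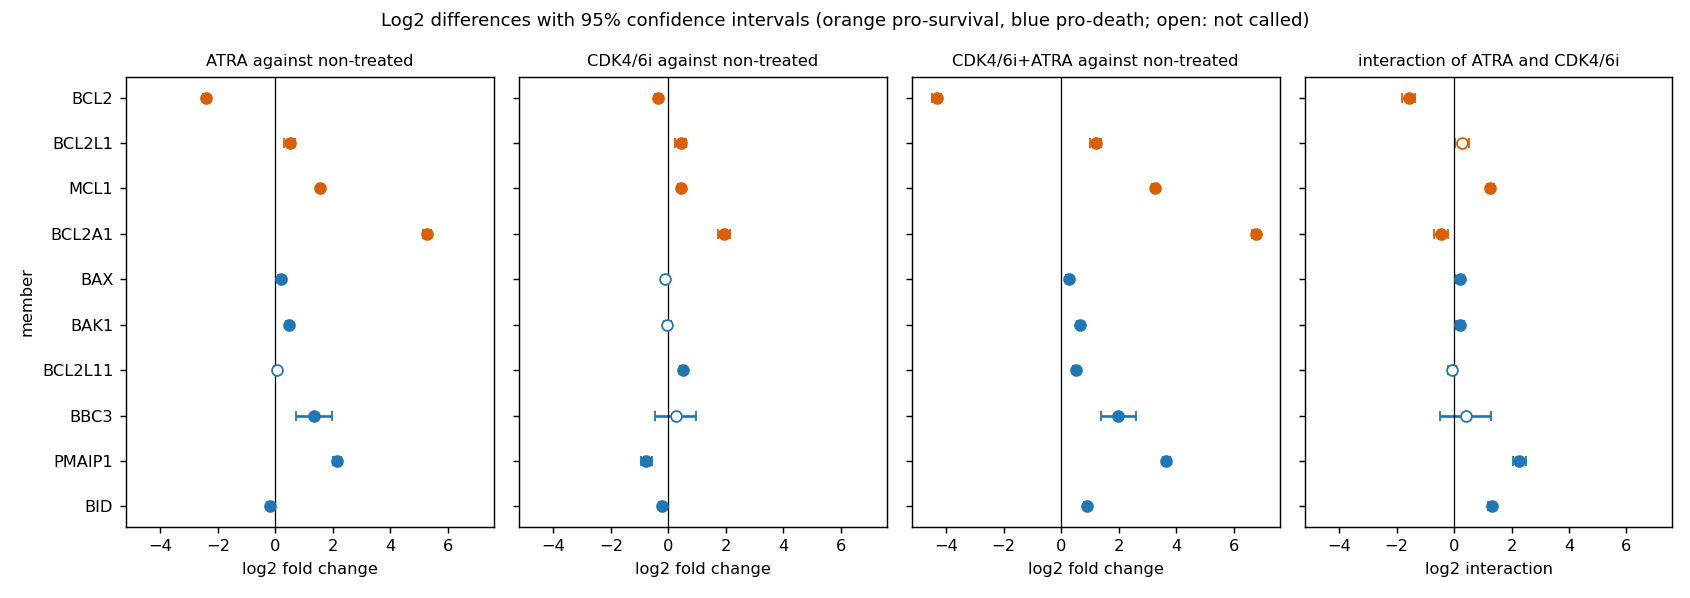
Log2 fold changes of the 10 members against non-treated cells and their interaction values (horizontal axes), with 95% confidence intervals as bars; filled points passed an adjusted p of 0.05 in edgeR. The intervals were derived from the F statistic and can be too narrow for large changes. Under CDK4/6i+ATRA, BCL2 stood at -4.34 and BCL2A1 at 6.76.

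Adding ATRA to CDK4/6i raised 8 members and lowered 1 (background 78.6%, 39.1% higher and 39.5% lower), and adding CDK4/6i to ATRA also raised 8 and lowered 1 (background 69.8%, 36.9% higher and 32.8% lower). BAX was not called in the latter (0.09, 95% interval -0.0069 to 0.19), and turned to -0.21 with library size alone as the scaling, as did BAK1, from 0.17 to -0.13. Both turned values passed the threshold as lower (adjusted p = 0.000348 and 0.021, edgeR), which left 6 members higher and 3 lower against ATRA under that scaling, where 2956 of all tested genes were higher and 6412 lower. BBC3 and BAK1 passed the threshold against ATRA (log2 0.66 and 0.17), but BBC3 did not without ATRA replicate 3, CDK4/6i+ATRA replicate 1 or CDK4/6i+ATRA replicate 3 (0.47, 0.59 and 0.61), nor BAK1 without CDK4/6i+ATRA replicate 2 (0.11). With library size alone or no filter BBC3 did not pass either (0.35 and 0.56), and BAK1 did not with no filter or with only the groups compared (0.079 and 0.10). ATRA against CDK4/6i had 6 members higher and 2 lower (background 70.8%, 35.2% higher and 35.6% lower).

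The interaction compared the effect of ATRA in the presence of CDK4/6i with its effect in its absence, from libraries that the 2 effects do not share. It passed the threshold for 7 members, 5 higher and 2 lower, where 51.4% of all tested genes did (24.5% higher and 27% lower). With library size alone as the scaling, 3 members were higher and 3 lower, against 1375 genes higher and 6061 lower. The largest were PMAIP1 at 2.27 on the log2 scale (SE 0.106, adjusted p = 5.79e-24), BCL2 at -1.57 (SE 0.112, adjusted p = 4.48e-17), BID at 1.31 (SE 0.0654, adjusted p = 1.03e-22) and MCL1 at 1.26 (SE 0.0570, adjusted p = 2.17e-24), by edgeR's quasi-likelihood F test, Benjamini-Hochberg adjusted. For BCL2A1 the value was -0.46 (SE 0.116, adjusted p = 0.000765, edgeR), so the fold change by ATRA was smaller under CDK4/6i (28.1-fold against 38.6-fold), although its level in CPM was highest with both drugs. BAX and BAK1 had 0.19 and 0.20 (adjusted p = 0.0204 and 0.0217, edgeR); neither passed with DESeq2 (0.17 and 0.18), without filter, or with library size alone, where they turned to -0.13 and -0.12. BAX also failed to pass without non-treated replicate 1, ATRA replicate 2 or CDK4/6i replicate 3 (0.154, 0.147 and 0.152). BAK1 failed to pass without non-treated replicate 3, ATRA replicate 2, CDK4/6i replicate 3 or CDK4/6i+ATRA replicate 2 (0.178, 0.171, 0.176 and 0.134). BCL2L1 was not called (0.27, adjusted p = 0.0615, edgeR) but passed without ATRA replicate 1 (0.33), and turned to -0.047 with library size alone. Not called either were BCL2L11 (-0.06; -0.38 and called with library size alone) and BBC3 (0.40). Leaving out a library moved the former between -0.11 and -0.02 and the latter between 0.18 and 0.65.

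**Figure D3:**
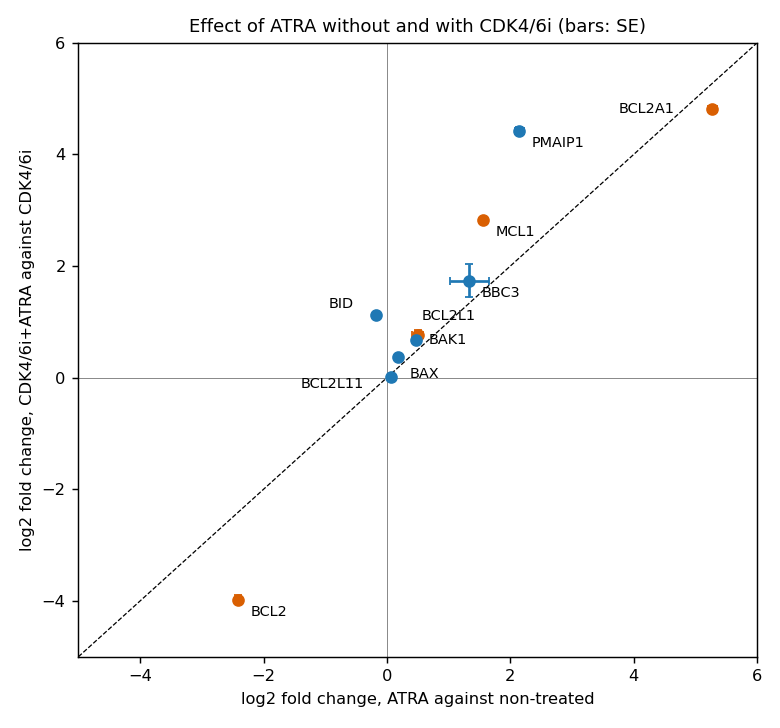
Log2 fold change of each member under ATRA against non-treated cells (horizontal) and under CDK4/6i+ATRA against CDK4/6i (vertical), with SE bars; the dashed line marks equal effects. The SEs were derived from the F statistic and can be too narrow for large changes. PMAIP1 (2.15 and 4.42), MCL1 (1.56 and 2.82) and BID (-0.19 and 1.12) lie above it, BCL2 (-2.41 and -3.98) below.

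Levels of different genes were compared per length, as RPKM (CPM per 1000 bases of the table's gene length), since lengths ran from 836 bases for BCL2A1 to 9577 for BCL2L11. In non-treated cells the order was MCL1 (49.2 RPKM), BAX (45.3), BID (32.7), BAK1 (20.8), BCL2 (14.0), BCL2L11 (6.80), BCL2A1 (4.66), BCL2L1 (4.23), PMAIP1 (3.96) and BBC3 (0.398). The libraries of neighbours from BCL2A1 to PMAIP1 overlapped. Under CDK4/6i+ATRA, BCL2A1 led (507 RPKM), above MCL1 (470.3), followed by BID (60.8), BAX (54.9), PMAIP1 (50.03), BAK1 (32.4), BCL2L11 (9.79), BCL2L1 (9.69), BBC3 (1.58) and BCL2 (0.689), and only the neighbouring pair BCL2L11 and BCL2L1 overlapped between libraries. BCL2 was in the fifth place without drugs and the last with both.

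The summed level of the 4 pro-survival genes was 72.0 ± 0.0970 RPKM (SD, n = 3) in non-treated cells, 334 ± 12.004 under ATRA, 101 ± 1.23 under CDK4/6i and 988 ± 22.1 under CDK4/6i+ATRA. The 6 pro-death genes summed to 109.9 ± 1.06, 135 ± 3.28, 103 ± 3.41 and 209.5 ± 4.91 RPKM in the same order. The ratio of the first sum to the second does not depend on how libraries are scaled, and was 0.655 ± 0.00708 in non-treated cells, 2.48 ± 0.0447 under ATRA, 0.981 ± 0.0221 under CDK4/6i and 4.72 ± 0.0985 under CDK4/6i+ATRA, with no overlap between the groups. These sums are descriptions without a test, and they rest on gene lengths that ignore which transcripts are used.

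**Figure D4:**
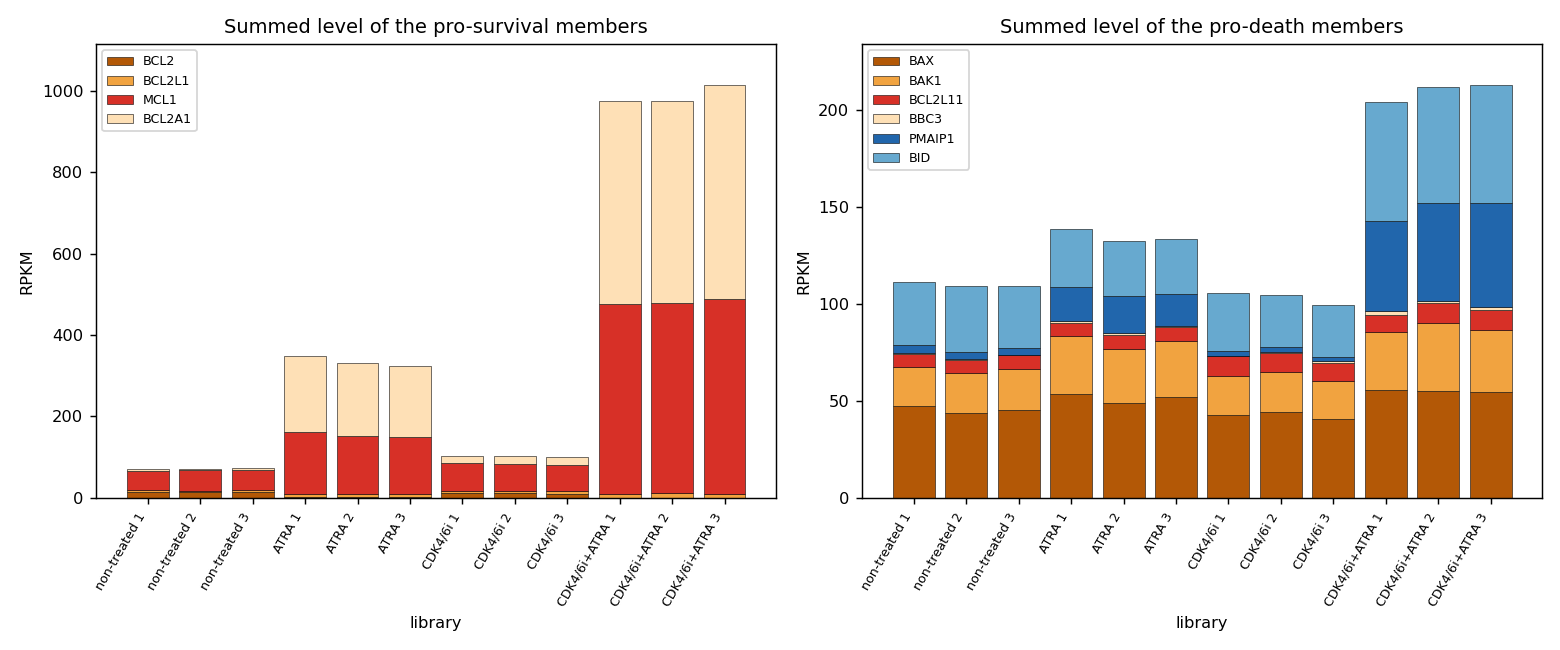
Summed RPKM of the pro-survival members (left) and the pro-death members (right) in each library, stacked by gene, both axes starting at 0 but with different scales. BCL2A1 and MCL1 make up nearly all of the pro-survival sum under ATRA and under CDK4/6i+ATRA, and PMAIP1 grows within the pro-death sum.

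BCL2 took 19.4% of the pro-survival sum in non-treated cells, 0.789% under ATRA, 10.8% under CDK4/6i and 0.0697% under CDK4/6i+ATRA. BCL2A1 took 6.46%, 54.0%, 17.8% and 51.3% in that order, and MCL1 68.3%, 43.5%, 65.8% and 47.6%. Within the pro-death sum, PMAIP1 went from 3.60% in non-treated cells to 13.045% under ATRA and 23.9% under CDK4/6i+ATRA, and was 2.27% under CDK4/6i, while BAX went from 41.2% to 26.2% with both drugs.

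Other genes of the family were counted from a list of 11, of which 6 were tested. The counts of this and the following lists under CDK4/6i+ATRA stand against 81.7% of all tested genes called, 41% higher and 40.7% lower. Under CDK4/6i+ATRA, the BH3-only gene BMF (log2 1.39), the pro-survival BCL2L2 (0.54) and BCL2L13 (0.26) rose, the last turning to -0.0026 with library size alone, and BCL2L12 fell by 0.66 on the log2 scale. BAD and BIK were not called. BCL2L10, BOK and BCL2L15 had at most 20 counts in any library and were under the filter, and HRK and BCL2L14 had none; BCL2L14, too, is also listed on alternate contigs, and how reads that map to several places were counted is not stated. MTCH2, of the outer membrane list, is listed there as well and had 29633 counts in all.

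Of 15 genes of the apoptosome and the caspases, 6 rose and 9 fell under CDK4/6i+ATRA, with a median of -0.92. CASP9, the initiator caspase of the apoptosome, rose by 3.28 on the log2 scale, and CASP8 by 2.00. ENDOG and HTRA2, which encode proteins of the mitochondrial intermembrane space, fell by 2.03 and 1.72, and CASP2 fell by 1.53. Among 7 inhibitors of apoptosis proteins, of which 6 were tested, 5 rose and BIRC5 fell by 5.69. At 5 CPM or more the largest rises were BIRC3 at 3.61, BIRC2 at 1.71 and XIAP at 1.03. BIRC7 rose most (8.62), but from 0 counts in the non-treated libraries to 30 to 44 counts a library, a mean of 3.11 CPM. NAIP, at 1 count in all and also listed on alternate contigs, was under the filter. BIRC5, which also serves in cell division, had 147 CPM in non-treated cells and 6.77 CPM under CDK4/6i.

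Of 19 transcription factors known to act on family genes, 18 were tested, and 12 rose and 5 fell under CDK4/6i+ATRA (median 0.93). NF-kB subunits NFKB2 (log2 2.84), RELB (2.78) and REL (2.26) had the largest rises among called genes of the list at 5 CPM or more, and E2F1 (-5.99), MYB (-4.92) and MYC (-3.94) the largest falls. In the list on MCL1 protein turnover, USP9X (0.90), FBXW7 (0.40) and BTRC (0.38) rose and USP13 (-2.02) fell among 5 genes; with library size alone FBXW7 and BTRC (0.13 and 0.12) did not pass. Of 6 outer membrane genes, 5 fell and none rose, with BNIP3 at -1.51, VDAC1 at -1.32 and VDAC3 at -1.17.

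The same lists were counted for the single drugs, against the backgrounds given above. ATRA gave 3 higher and 1 lower of the 6 other family genes tested, 6 and 8 of the 15 apoptosome and caspase genes, and 5 and 0 of the 6 inhibitors of apoptosis proteins. It also gave 12 higher and 5 lower of the 18 transcription factors, 1 and 2 of the 5 genes on MCL1 turnover, and 0 and 5 of the 6 outer membrane genes. CDK4/6i moved fewer, with 1 higher and 1 lower in the other family genes, 3 and 5 in the apoptosome and caspases, and 3 and 1 in the inhibitors of apoptosis proteins. Its counts were 7 higher and 5 lower in the transcription factors, and 1 and 1 both in MCL1 turnover and in the outer membrane.

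Across the 12 libraries, the genes most like BCL2A1 by the Pearson correlation of log2(CPM + 1) were S100A9 (0.999), IPCEF1 (0.998) and ARHGAP30 (0.998), and those most like PMAIP1 were HIF1A (0.997), MRPS6 (0.996) and RAB11B (0.996). The libraries share 4 groups, and 762 and 646 of 9291 genes exceeded 0.95.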

How the data were processed

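According to the submitters' processing notes, the authors trimmed reads with Trimmomatic 0.33 and aligned them with STAR 2.7.11a to hg38; the deposited values are whole-number gene counts without normalization, laid out like featureCounts output, although RSEM is the counting tool given in the paper. The library kit is directional, but strand use in counting was not stated.

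Genes were filtered with filterByExpr, normalized with TMM and tested with edgeR 4.0.16 (R 4.3.3) in a model of 4 groups, two-sided, with Benjamini-Hochberg adjustment over 13318 genes. Libraries of a group differed by more than sampling noise (chi-square per degree of freedom 1.85 to 6.81). Figures were drawn with matplotlib 3.10.9. The members and lists were chosen with earlier results of these data known. All 10 members were named. From each other list, up to 3 rises and 3 falls with CDK4/6i+ATRA were named among called genes of at least 5 CPM, and genes under the filter. BIRC7, below 5 CPM, was named as well. Alternatives were other scalings, filters, DESeq2 1.42.0, only the groups compared, a replicate block and leaving out each library; those for the other lists were added after seeing the data.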

Additional observations from a re-analysis of the deposited data

Results flagged for a closer look

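The effect of ATRA with CDK4/6i minus its effect without CDK4/6i, on the log2 scale, differed past the threshold for 7 of 10 members in edgeR's interaction test, where 51.4% of all tested genes did. The values were -1.57 for BCL2, 1.26 for MCL1, -0.458 for BCL2A1, 0.19 for BAX, 0.201 for BAK1, 2.27 for PMAIP1 and 1.31 for BID. The calls of BAX and BAK1 were lost, or their values turned, under other settings, as given with the interaction in the Results.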

How the results depend on the processing

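Of 1320 values of the members under 19 alternatives, 1278 kept their direction and side of the threshold, 21 no longer passed it, 3 newly passed it and 18 turned direction. Counts of called members and genes, both directions together, stayed within 1.5 times in every alternative. Leaving out a library gave 5 to 8 members called in the interaction and 8 or 9 for CDK4/6i+ATRA against ATRA. Counts by direction moved more. Members higher in the interaction went from 5 to 3 with DESeq2, no filter or library size alone. The same count of 3 was reached without ATRA replicate 2 or CDK4/6i replicate 3. Library size alone took the genes in the interaction from 3258 higher and 3594 lower to 1375 and 6061. Library size alone turned BCL2L11 for CDK4/6i+ATRA against CDK4/6i (-0.28), BAX and BAK1 for CDK4/6i+ATRA against ATRA (-0.21 and -0.13), the interactions of BCL2L1, BAX and BAK1 (-0.047, -0.13 and -0.12) and BCL2L13 under CDK4/6i+ATRA relative to no treatment (-0.0026). It also took BAX under CDK4/6i+ATRA below the threshold. With only the groups compared, BCL2L11 passed it for ATRA (0.12). Of 512 values of 27 list genes, 509 were unchanged in these terms. For CDK4/6i+ATRA, library size alone shifted the share of calls that were higher from 50.2% to 40.5% against no treatment, from 49.8% to 36.7% against CDK4/6i, from 53.0% to 31.6% against ATRA and from 47.5% to 18.5% for the interaction. No filter turned BCL2L11 against CDK4/6i (-0.097) and BAX against ATRA (-0.00078). Leaving out a library moved BCL2L11 against CDK4/6i between -0.033 and 0.045 and BCL2L1 for ATRA against CDK4/6i between -0.0011 and 0.11, all from values not called. The cause was not tested.

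No pairing of the libraries by replicate number was seen: none of 18 correlations of same-numbered libraries was over 0.1 (-0.114 to 0.0702), and 2 of 12 libraries correlated best with their own number. With 3 libraries a group, this check could miss a shared effect of culture or day. The replicate block left 9, 7, 10, 9, 9, 8 and 7 members called, as without it, and 10824 genes called under CDK4/6i+ATRA relative to no treatment against 10885 without it. Depth limits BBC3 most, with 10 counts in its lowest library.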
